A study of Mus musculus with 32 samples.

Results

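Hindlimb muscle of aged C57BL/6 mice was compared with that of young mice in the first hours of the light phase. The comparison took the arrays of zeitgeber time (ZT, counted in hours from lights on) 0 and 3, which are 8 of the 32 arrays of the series, and set 4 arrays of mice aged 80 weeks against 4 arrays of mice aged 8 weeks, with ZT as a covariate. The choice of arrays used only the labels and no measured value. The series covers 8 ZT, each with 2 arrays per age, on GeneChip Mouse Gene 2.0 ST arrays. All mice were C57BL/6, fed freely and kept for 2 weeks in 12 h of light and 12 h of darkness, and the labels name no genetic change and no drug for either age. The 4 groups used here were young at ZT 0, aged at ZT 0, young at ZT 3 and aged at ZT 3, with 2 arrays each. Every array held pooled RNA of 3 mice, so that the 8 arrays stand for 24 mice, and the spread between arrays is that between pools, with the spread among the mice of a pool averaged out. The labels name the tissue only as hindlimb muscle, without saying which muscle.

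Mice are active at night, and lights on marks the start of their rest phase. Skeletal muscle carries its own circadian clock, in which BMAL1 and its partners CLOCK and NPAS2 switch on the period, cryptochrome and REV-ERB genes, whose proteins then switch the activators off. Ageing muscle is known for loss of fibre mass, changes at the nerve-muscle junction, slower repair by satellite cells and growing numbers of fat and immune cells between the fibres. RNA of whole muscle therefore mixes the fibres with these other cells.

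Levels are the authors' log2 values, so that a difference of 1 is a 2-fold change. The array medians lay between 5.98 and 6.05. The 2 replicates of a group differed by a root mean square of 0.304 to 0.382 over all genes, and arrays of different groups by 0.241 to 0.410. Young ZT 0 replicate 2 differed by 0.286 from aged ZT 0 replicate 2 and from aged ZT 3 replicate 2. That is less than between the 2 replicates of any group. No pair of arrays differed by less than 0.241. All 8 arrays had the high levels of fibre genes that muscle should have: the mean of 12 fibre genes was 12.9 to 12.9 in young and 12.9 to 12.9 in aged. Young ZT 0 replicate 1 and young ZT 3 replicate 1 carried liver transcripts, with a mean over 17 measured hepatocyte genes of 8.33 and 8.54, against 6.02 to 6.95 in the other 6 arrays. Aged ZT 0 replicate 1 stood apart in genes of regenerating muscle: Myh3, the embryonic myosin heavy chain gene, stood there at 7.94, against 4.91 to 5.28 in the other aged arrays.

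In all, 30 genes differed between the ages past an adjusted p of 0.05 by limma (Benjamini-Hochberg over 23279 genes), 25 of them higher and 5 lower in aged muscle. These are 0.107% and 0.0215% of the genes tested. The higher genes fell into genes of muscle fibres (Kcnab1, Igfn1, Camk2b), genes of fat cells (Adipoq, Retn and others), immunoglobulin variable segments (Igkv14-126, Ighv1-37) and a mixed remainder led by Dkk3, Zfp97 and Amy1. The lower genes were Pmp22, a gene of peripheral myelin, the non-coding Meg3 and AF357425, Nrep and Palld. The differences ran from 0.60 to 3.06 in size on the log2 scale, and 17 of the 30 were of 2-fold or more. In every one of the 30 both aged arrays lay on the same side of both young arrays at ZT 0 and again at ZT 3. Over all genes, 6.72% had all aged arrays above the young in this sense and 4.56% had them below, so that this separation alone was common.

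The number of calls depended on single arrays. The fit without 1 array gave 3 to 22 higher and 0 to 4 lower genes. It gave 4 and 0 without young ZT 3 replicate 1, 3 and 1 without aged ZT 3 replicate 2, 4 and 0 without aged ZT 3 replicate 1, 6 and 0 without young ZT 0 replicate 2, 6 and 1 without young ZT 3 replicate 2, 9 and 3 without aged ZT 0 replicate 1, and 13 and 2 without young ZT 0 replicate 1. Without both young arrays that carried liver transcripts (a fit added once the data were known), 1 gene was higher and 0 lower. All 30 genes differed there by 0.787 to 1.19 times the difference over all 8 arrays. Their direction could not change when arrays were left out, because the ages were separated at both ZT in all 30. By limma 2546 genes had an unadjusted p under 0.05. On all 8 arrays 7 other settings (of scaling, filter, variance model and ZT term) were compared gene by gene. Of the 30 genes 12 passed in each of those that tested them, among them Kcnab1, Igfn1, Amy1, Aldh1a1, Rai14, Meg3, AF357425, Nrep and Palld. The other 18 lost their call in at least 1. The 7 settings left out fits with the replicate number in the model. With that number as a block 6 of the 30 genes lost their call, Palld among them. Nesting the block in ZT cost 12 genes their call, Palld and Meg3 among them.

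**Figure D1:**
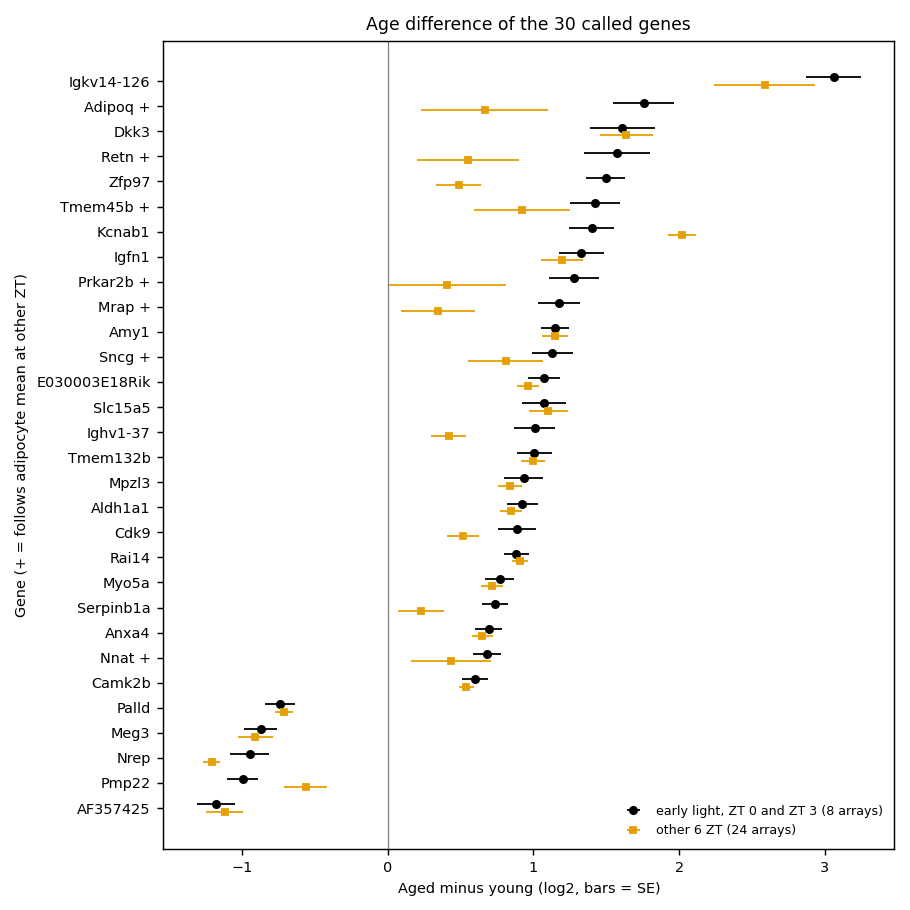
Aged minus young on the log2 scale (x axis) for the 30 called genes (y axis), in early light (black, 8 arrays) and at the other 6 ZT (orange, 24 arrays of other mice), with bars of 1 standard error. All 30 genes lie on the same side of 0 in both sets of arrays, and the genes marked +, which follow the adipocyte mean at the other ZT, lie nearer to 0 there than in early light.

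Among genes of muscle fibres, the clearest rise was that of Kcnab1, which encodes a beta subunit of voltage-gated potassium channels. In what follows, the 4 values of an age are those of ZT 0 replicate 1, ZT 0 replicate 2, ZT 3 replicate 1 and ZT 3 replicate 2. Kcnab1 stood at 6.78, 6.94, 6.77 and 6.65 in young and 7.70, 8.30, 8.38 and 8.35 in aged arrays. The ages did not overlap, and aged ZT 0 replicate 1 was the lowest of the aged arrays. The difference was 1.40 ± 0.16 (SE, n = 4 per age), a 2.64-fold rise (limma adjusted p = 0.0165). RefSeq (GRCm38.p6) lists several start sites for this gene. Each window runs from 250 bases before a start to 50 after it. The window shown was picked for its letter matches, as the E-box CACGTG is the sequence that BMAL1 and CLOCK bind (chr3:65187853-65188152, plus strand). Another window of this gene holds an E-box 162 bases before its start, and a further window holds no E-box. Capitals mark the E-box CACGTG 45 bases before the start. They also mark the letters TATAAA on the minus strand, which lie after the start.
Kcnab1: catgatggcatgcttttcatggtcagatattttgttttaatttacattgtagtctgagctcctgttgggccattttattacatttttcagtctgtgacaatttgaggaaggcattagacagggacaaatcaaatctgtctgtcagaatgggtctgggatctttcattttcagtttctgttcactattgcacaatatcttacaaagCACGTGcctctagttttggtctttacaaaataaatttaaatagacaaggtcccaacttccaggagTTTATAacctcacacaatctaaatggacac

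An E-box CACGTG was present in 7.15% of all 32851 promoter windows of this length and TATAAA, on either strand, in 13.6%. These are matches of letters and not measured sites. Of the 21 called genes with a window, 2 had an E-box in at least 1 of theirs, Kcnab1 and Prkar2b, and 8.09% of all genes did.

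Igfn1, which encodes an immunoglobulin-like and fibronectin type III domain protein of the Z-disc region, was 2.51-fold higher. It stood at 6.97, 6.84, 6.79 and 6.52 in young and at 7.97, 8.04, 8.50 and 7.93 in aged arrays, without overlap (difference 1.33 ± 0.15, limma adjusted p = 0.0181). Kcnab1 and Igfn1 were the 2 called among 12 measured genes of fibre stretch and stress. The median difference of this list was 0.12, and in 6 of its genes all aged arrays lay above the young. Over all genes 0.107% were called higher and 6.72% were separated upward. The gene lists were chosen with earlier results of these data known, so that these counts are no test of the list. Ankrd1, the stretch-responsive ankyrin repeat gene, stood at 7.66, 6.79, 7.51 and 7.90 in young and 9.62, 8.93, 8.16 and 8.76 in aged arrays, a difference of 1.40 that missed the threshold (limma adjusted p = 0.175). Ostn, which encodes musclin, and Mss51, a mitochondrial regulator gene, differed by 1.34 and 1.33 and missed it too (limma adjusted p = 0.208 and 0.298). Csrp3, a Z-disc LIM protein gene of the same list, went the other way at -0.63 (adjusted p = 0.444).

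Other called genes belonged to signalling, enzymes and the cytoskeleton. Amy1, an alpha-amylase gene, stood at 7.98, 8.13, 8.22 and 8.19 in young and 9.36, 9.25, 9.28 and 9.22 in aged arrays. The ages did not overlap and lay 1.15 ± 0.10 apart, 2.22-fold (limma adjusted p = 0.00486). Aldh1a1, which encodes a retinaldehyde dehydrogenase that makes retinoic acid, stood at 9.76, 9.60, 9.80 and 9.54 in young and 10.6, 10.6, 10.5 and 10.7 in aged arrays (1.90-fold, adjusted p = 0.0165). Dkk3, a secreted protein gene of the Dickkopf family, was 3.05-fold higher, at 7.37, 6.61, 7.10 and 6.98 in young and 8.62, 8.16, 8.44 and 9.27 in aged arrays, with aged ZT 3 replicate 2 the highest (adjusted p = 0.0372).

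Rai14, an actin-associated ankyrin repeat gene (1.84-fold), Myo5a, a vesicle-carrying myosin gene (1.70-fold), and Camk2b, the beta chain gene of a calcium- and calmodulin-dependent kinase (1.52-fold), rose by less. Camk2b had the smallest rise of the 25, from 9.80 to 9.97 in young to 10.5 to 10.5 in aged arrays (adjusted p = 0.0496). Cdk9, the kinase of the elongation factor P-TEFb, rose 1.85-fold, Anxa4, an annexin gene, 1.62-fold, and Mpzl3, a myelin protein zero-like gene, 1.91-fold (adjusted p = 0.0496, 0.0322 and 0.0428). Slc15a5, a solute carrier gene, Tmem132b, a transmembrane protein gene, and the RIKEN transcript E030003E18Rik rose by 1.07, 1.01 and 1.07 on the log2 scale. Zfp97, a zinc finger gene, stood at 4.02, 3.90, 4.87 and 5.04 in young and 5.49, 5.88, 6.14 and 6.29 in aged arrays, low levels on these arrays (difference 1.49 ± 0.13, adjusted p = 0.00673). Serpinb1a, a protease inhibitor gene, rose by 0.73 (adjusted p = 0.0187) from a level of 5.38.

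**Figure D2:**
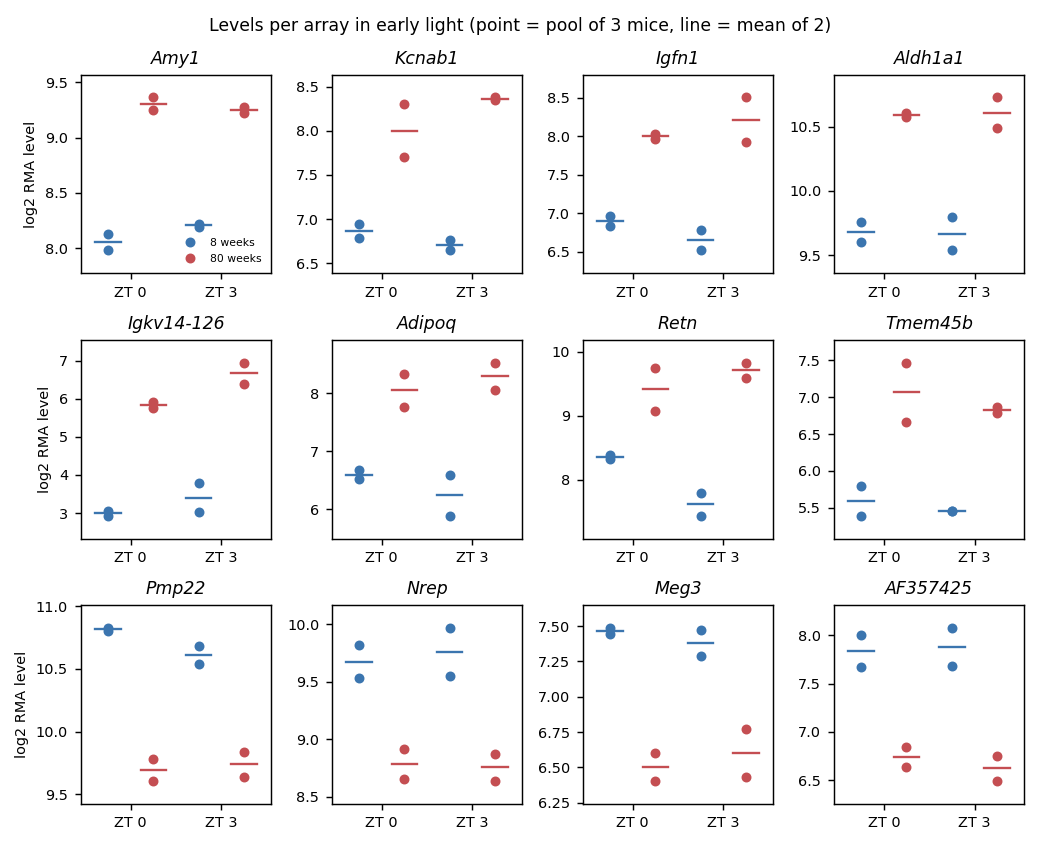
Log2 RMA level (y axis) of 12 called genes in each of the 8 arrays at ZT 0 and ZT 3 (x axis), young in blue and aged in red; each point is a pool of 3 mice and each line the mean of 2 arrays. In all 12 panels the red points lie wholly above or wholly below the blue points at both ZT.

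Adipoq and Retn, both hormone genes of fat cells, were higher in aged muscle in early light. Adipoq, which encodes the fat cell hormone adiponectin, stood at 6.52, 6.67, 6.60 and 5.89 in young and 8.34, 7.77, 8.53 and 8.06 in aged arrays. No aged array reached down to a young one, and the difference was 1.76 ± 0.21, 3.38-fold (limma adjusted p = 0.0181). Retn, the resistin gene, was 2.98-fold higher, at 8.38, 8.33, 7.79 and 7.44 in young and 9.75, 9.07, 9.83 and 9.60 in aged arrays (adjusted p = 0.0428). All 7 measured genes of the adipocyte list had every aged array above the young at both ZT, as did 6.72% of all genes. The median difference of the list was 1.41, beside -0.0019 over all genes. Lep, the leptin gene, differed by 1.41, Cidec, a lipid droplet gene, by 1.48 and Plin1, the perilipin gene, by 0.92, and these 3 missed the threshold (adjusted p = 0.175, 0.0999 and 0.0731). The mean of the list per array was 6.95 to 7.67 in young and 8.27 to 8.94 in aged arrays. In such bulk samples more cells of a type and more RNA per cell cannot be told apart. When the spread was taken from all 32 arrays, Adipoq and Retn did not pass (adjusted p = 0.366 and 0.301). The RefSeq promoter window of Adipoq is shown as that of the called gene with the largest rise among fat cell genes (chr16:23146286-23146585, plus strand; in capitals, 3 matches to CCAAT, of which 2 on the minus strand, at 34, 27 and 7 bases before the start; CCAAT on either strand was in 37.4% of all windows).
Adipoq: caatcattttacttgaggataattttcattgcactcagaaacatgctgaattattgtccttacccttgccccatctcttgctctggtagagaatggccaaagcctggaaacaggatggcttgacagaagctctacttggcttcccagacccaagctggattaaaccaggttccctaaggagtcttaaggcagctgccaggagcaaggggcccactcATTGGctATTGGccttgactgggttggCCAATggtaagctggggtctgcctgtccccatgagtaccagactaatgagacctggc

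The adipocyte mean served to describe which called genes follow fat in other arrays. At the other 6 ZT, 24 arrays of other mice, the slope of each gene on the adipocyte mean was fitted with age and ZT in the model. It was positive past the threshold for 0.833% of genes and for 7 of the 25 called higher genes. These were Adipoq and Retn, which are part of the mean, and Mrap, a melanocortin receptor accessory protein gene, Sncg, the gamma-synuclein gene, Prkar2b, a regulatory subunit gene of protein kinase A, Nnat, the neuronatin gene, and Tmem45b, a transmembrane protein gene. The slope was 1.19 ± 0.058 (SE) for Prkar2b, 0.94 ± 0.077 for Tmem45b, 0.75 ± 0.076 for Nnat, 0.74 ± 0.055 for Sncg and 0.72 ± 0.059 for Mrap, in log2 units per unit of the mean. Kcnab1 had a slope of 0.039 ± 0.065 and Amy1 one of 0.12 ± 0.052, and neither passed the threshold (limma adjusted p = 0.863 and 0.404).

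At the other 6 ZT the adipocyte mean overlapped between the ages, from 7.20 to 9.56 in young and from 6.93 to 10.1 in aged arrays. The median difference of the list there was 0.39, with 0 of 7 genes past the threshold. With the spread of all 32 arrays none of the 7 called genes that follow the mean kept its call in early light (limma adjusted p = 0.277 for Mrap to 0.576 for Nnat). These genes were taken for varying with the mean at the other 6 ZT, whose arrays are among the 32. A wide spread was therefore partly built into their choice. Of these 7, Sncg alone passed the age test at the other 6 ZT, with a difference of 0.81 (limma adjusted p = 0.0413), and Adipoq differed by 0.67 there (adjusted p = 0.368). With the adipocyte mean as a covariate at the other 6 ZT, Adipoq differed by 0.068, Mrap by 0.012 and Prkar2b by -0.14. Adipoq is part of the adipocyte mean, and Mrap and Prkar2b were taken for their slope on it in the same arrays. These values are therefore no separate test. In the 8 early arrays the ages do not overlap in this mean, so that age and the adipocyte mean cannot be told apart there. The brown fat list had a median difference of 0.058 in early light, and 0 of its 6 genes passed, with Elovl3, a fatty acid elongase gene, Cox8b, a respiratory chain subunit gene, and Cidea, a lipid droplet gene, at -0.76, 0.23 and 0.19.

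**Figure D3:**
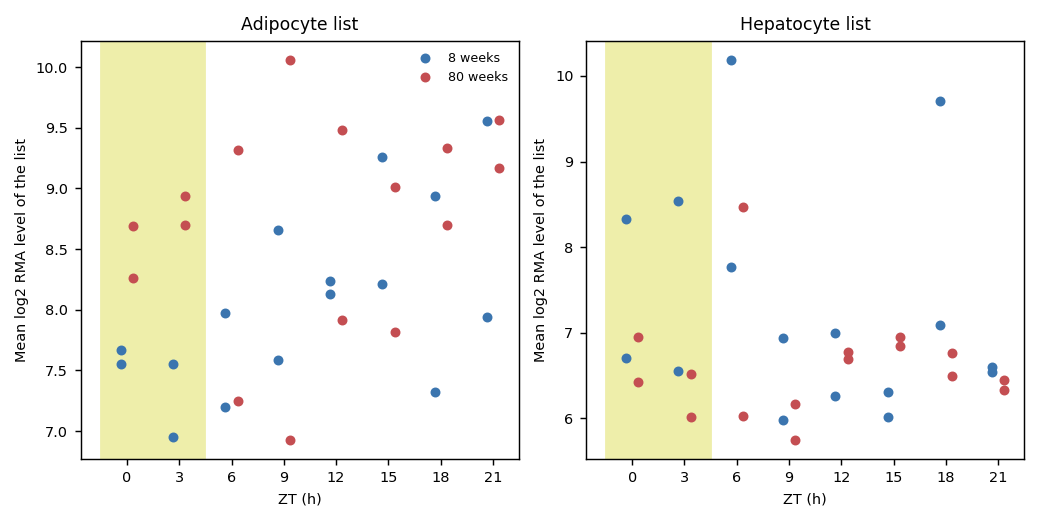
Mean log2 level of the 7 measured adipocyte genes (left) and of the 17 measured hepatocyte genes (right) in each array, by ZT in h, young in blue and aged in red, with early light shaded. In the shaded window the adipocyte means of the ages do not overlap, while at later ZT they do, and 2 young arrays of the window lie at 8.33 and 8.54 in the hepatocyte mean.

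Of the immunoglobulin variable segments, which plasma cells express, Igkv14-126 and Ighv1-37 were called higher. Igkv14-126, a variable segment of the kappa light chain, rose from 3.05, 2.93, 3.02 and 3.78 in young to 5.92, 5.75, 6.40 and 6.95 in aged arrays (difference 3.06 ± 0.19, limma adjusted p = 6.64e-04). This is the largest difference among the called genes, but in the 4 young arrays only 3.69% to 10.1% of all genes lay lower, whether such levels are above background was not tested, and the filter on a mean level of 6 leaves this gene out. Ighv1-37, a heavy chain variable segment, stood at 6.10, 5.98, 6.30 and 5.86 in young and 7.03, 6.80, 7.43 and 7.03 in aged arrays (adjusted p = 0.0372). Variable segments are near-identical copies and can share probes. Igkc, the kappa constant region, stood at 7.62, 5.66, 8.18 and 5.89 in young and 9.67, 8.47, 11.1 and 9.40 in aged arrays, and its difference of 2.81 missed the threshold (adjusted p = 0.164). It passed with the filter on level (adjusted p = 0.0423). At both ages the replicate 1 arrays of Igkc lay above the replicate 2 arrays, and the 2 young ones among them carried liver transcripts, whose part in this was not tested. Ighg2c, a heavy chain constant gene, and Jchain, which joins secreted antibodies, differed by 2.29 and 1.06 and missed the threshold (adjusted p = 0.0807 and 0.164). Ighg2c passed with the filter (adjusted p = 0.0148) and with the spread of all 32 arrays (0.00259). Of 8 B and plasma cell genes 0 passed, 6 lay above and 2 below 0, and their median difference was 0.41. At an unadjusted p under 0.05 by limma 4 of them were higher and 1 was lower. Of all 23279 genes 1403 were higher and 1143 lower at this cut-off.

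All 11 measured macrophage genes had a positive difference, with a median of 0.40, and 0 passed the threshold. Cd163, the haemoglobin scavenger receptor gene, stood at 6.75, 6.92, 6.83 and 6.41 in young and 7.51, 7.42, 7.04 and 7.17 in aged arrays (difference 0.56 ± 0.12, limma adjusted p = 0.149). Mrc1, the mannose receptor gene, differed by 0.53 and C1qc, a complement gene, by 0.62 (adjusted p = 0.214 and 0.251). The macrophage mean of aged ZT 0 replicate 1, the array with high Myh3, was 7.23, against 6.69 to 6.75 in the other aged arrays and 6.32 to 6.71 in young arrays. Aged ZT 3 replicate 1, at 6.69, lay just under young ZT 0 replicate 2, at 6.71, so that the ages overlapped. The median difference of the list was 0.20 without the 2 young arrays that carried liver transcripts. The T and NK cell list had a median of 0.16 and the neutrophil list one of -0.057, with 0 genes past the threshold in either. The T cell receptor complex gene Cd3g, the co-receptor gene Cd8a and the cytotoxic granule gene Nkg7 differed by 0.32, 0.29 and 0.24, and the neutrophil genes Retnlg, S100a8 and Mmp8 by -0.15, -0.13 and 0.068. B2m, the light chain of class I molecules, was 0.48 higher, with all 4 aged arrays above the young, and missed the threshold (adjusted p = 0.124), which it passed with the filter on level (0.0245) and with an intensity trend (0.00814). H2-K1, a class I heavy chain gene, and Psmb8, an immunoproteasome gene, differed by 0.30 and 0.32, and the interferon list, to which these 3 belong, had 7 genes above and 7 below 0. All 3 measured red blood cell genes, Alas2 of haem synthesis, the globin gene Hbb-bs and the anion exchanger gene Slc4a1, lay above 0, at 0.26, 0.23 and 0.18, with adjusted p of at least 0.617.

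Of the 5 lower genes 2 were non-coding transcripts of the imprinted Dlk1-Dio3 domain. In this domain the maternal copy gives a chain of non-coding RNAs, among them Meg3, the small nucleolar RNA host Rian and many microRNAs and small nucleolar RNAs, while the paternal copy gives the proteins of Dlk1, Rtl1 and Dio3. Meg3 stood at 7.49, 7.44, 7.48 and 7.29 in young and 6.60, 6.41, 6.43 and 6.78 in aged arrays. All young arrays lay above all aged arrays. The difference was -0.87 ± 0.11 (limma adjusted p = 0.0290), a fall to 0.547 of the young level. AF357425, a small nucleolar RNA of the domain, stood at 7.67, 8.01, 7.68 and 8.08 in young and 6.84, 6.64, 6.49 and 6.75 in aged arrays (difference -1.18 ± 0.13, adjusted p = 0.0165). Rian (-0.81), AF357355 (-1.02) and AF357426 (-0.87) were also separated between the ages and missed the threshold (adjusted p = 0.147, 0.210 and 0.182). Mirg differed by -0.0071, and the protein-coding Dlk1, Rtl1 and Dio3 by -0.24, 0.25 and 0.24. The promoter window of the first RefSeq start of Meg3 is shown because Meg3 opens the maternal chain (chr12:109540746-109541045, plus strand; in capitals, CCAAT 100 bases before the start, and TATAAA on the minus strand at 29 and on the plus strand at 25 bases before it, which overlap).
Meg3: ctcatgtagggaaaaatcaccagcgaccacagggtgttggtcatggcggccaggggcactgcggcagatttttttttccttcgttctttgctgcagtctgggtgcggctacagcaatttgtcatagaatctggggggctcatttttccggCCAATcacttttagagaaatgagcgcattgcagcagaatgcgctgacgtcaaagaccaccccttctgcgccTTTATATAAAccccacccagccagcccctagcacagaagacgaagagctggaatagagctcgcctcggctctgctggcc

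Pmp22, the peripheral myelin protein gene, was the called gene with the largest fall outside the domain. It stood at 10.8, 10.8, 10.7 and 10.5 in young and 9.78, 9.61, 9.64 and 9.84 in aged arrays, a difference of -0.995 ± 0.10 (limma adjusted p = 0.0127). With the spread of all 32 arrays it did not pass (adjusted p = 0.0656). The other 5 measured Schwann cell and nerve genes had 0 calls, and the list median was -0.058. Mbp, the myelin basic protein gene, differed by -0.10 and S100b by 0.16. Nrep, a gene expressed in regenerating tissue, stood at 9.53, 9.82, 9.55 and 9.97 in young and 8.65, 8.92, 8.64 and 8.88 in aged arrays (difference -0.95, adjusted p = 0.0372). Palld, which encodes the actin-binding palladin, stood at 10.3, 10.4, 10.3 and 10.4 in young and 9.76, 9.50, 9.51 and 9.66 in aged arrays (difference -0.74, adjusted p = 0.0372).

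Of the genes of developing and regenerating muscle, Nrep alone passed the threshold. Actc1, an actin gene of heart and of developing muscle, had all aged arrays below the young, at 12.2, 13.1, 12.3 and 12.9 in young and 11.9, 11.0, 11.3 and 11.7 in aged arrays, and missed the threshold (difference -1.16, limma adjusted p = 0.149). The list of 14 had 1 called gene, Nrep, and a median of 0.11. Myh8, the perinatal myosin gene, was at 4.84, 4.66, 4.80 and 5.06 in young and 7.34, 5.28, 5.57 and 5.74 in aged arrays, and its difference of 1.14 had its highest value in aged ZT 0 replicate 1 (adjusted p = 0.329). The list mean of that array was 8.35, against 7.46 to 7.56 in the other 3 aged arrays. Of 10 satellite cell genes 0 passed, 5 lay above and 5 below 0, and the median was -0.071. The 3 of smallest p lay below, where Spry1, a growth factor antagonist gene of quiescent satellite cells, Calcr, the calcitonin receptor gene, and Pax7, the satellite cell transcription factor gene, differed by -0.50, -0.52 and -0.29. Of 11 cell cycle genes 7 lay above 0 and 0 passed, with Pcna, the replication clamp gene, Top2a, a topoisomerase gene, and Rrm2, a ribonucleotide reductase gene, at 0.30, 0.26 and -0.34.

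Of the stromal lists, the collagen, tendon and endothelial genes mostly had negative differences in aged muscle, the fibroblast and smooth muscle genes did not, and none of the 5 held a call. Of 20 collagen and matrix genes 16 had a negative difference, the median was -0.26, and 0 passed. Col1a1, the main fibrillar collagen gene, stood at 9.47, 10.2, 9.57 and 10.2 in young and 9.77, 8.44, 8.36 and 8.88 in aged arrays. Aged ZT 0 replicate 1 reached into the young range, and the difference of -1.01 missed the threshold (limma adjusted p = 0.298). Col15a1, a basement membrane zone collagen gene, and Sparc, a collagen-binding protein gene, differed by -0.46 and -0.53. Of 12 tenocyte and cartilage genes 10 had a negative difference (median -0.22), led by Kera, the keratocan gene, at -0.90, with Ibsp, a bone matrix gene, at -0.43 and Cilp2, a cartilage protein gene, at -0.30. All 10 endothelial genes had a negative difference (median -0.20), among them Cdh5, the adherens junction cadherin gene, at -0.35 and Kdr, the receptor of vascular endothelial growth factor, at -0.34, and Tek, the angiopoietin receptor gene, at -0.28. Of 9 fibroblast and fibro-adipogenic genes 5 lay above 0 and 4 below (median 0.041), with Dpt, the dermatopontin gene, at 0.35 and Col3a1, a fibrillar collagen gene, at -0.44. Of 10 smooth muscle and pericyte genes 5 lay on either side (median 0.027), with the contractile genes Acta2 and Tagln at 0.30 and 0.29 and Pdgfrb, a growth factor receptor gene of pericytes, at -0.42. In each of these lists the limma adjusted p of the named genes was at least 0.258.

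Hepatocyte genes gave the largest falls among genes that missed the threshold. Serpina1b, an alpha-1 antitrypsin gene, stood at 9.35, 6.92, 9.47 and 6.81 in young and 5.33, 6.73, 4.35 and 6.36 in aged arrays, and Serpina1e, Ahsg, the fetuin-A gene, and Mup13, a major urinary protein gene, differed by -2.09, -1.70 and -1.07. Mup3, of the same family as Mup13, differed by -2.35 (adjusted p = 0.334). Members of such gene families can share probes. In Serpina1b, Serpina1e, Ahsg and Mup13 the 2 young replicate 1 arrays lay highest of all 8. The median difference of the 17 hepatocyte genes was -1.06, and -0.26 without those 2 arrays. Cyp2e1, a cytochrome P450 gene of this list, went the other way at 1.12, from 8.92, 8.85, 9.04 and 7.86 in young to 10.3, 9.51, 10.1 and 9.28 in aged arrays (adjusted p = 0.212). Usp17lc (-1.08), Olfr1303 (-1.04) and the transcript B230312C02Rik (-1.04) completed the 14 largest falls with separated ages.

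Lists of the nerve-muscle junction, of p53 targets and of the heat shock, oxidative and unfolded protein responses held no call. Of the 17 denervation and junction genes measured 0 passed, 4 were separated upward and 1 downward, and the median was 0.14. Over all genes 6.72% were separated upward and 4.56% downward. Etv5, a transcription factor gene of the junction, stood at 6.67, 6.79, 6.93 and 6.93 in young and 6.34, 6.23, 6.42 and 6.42 in aged arrays (difference -0.48, limma adjusted p = 0.112). Gadd45a, which rises in denervated muscle, differed by 0.42 and Dach2, a repressor of myogenin, by 0.46 (adjusted p = 0.164 and 0.208). Eda2r, a receptor gene that p53 induces, stood at 6.72, 6.63, 6.39 and 6.86 in young and 7.42, 7.80, 7.82 and 7.30 in aged arrays, a 1.91-fold difference that missed the threshold (adjusted p = 0.0731). The groups did not overlap, and Eda2r passed in 5 of the 7 other settings on these arrays, with adjusted p of 0.00786 to 0.0472. Mdm2 and Cdkn2a, of the same p53 and senescence list, differed by 0.10 and 0.088. Mt2, a metallothionein gene on both the glucocorticoid and the oxidative stress list, differed by 1.03 (adjusted p = 0.149), Mt1, of the same family, by 0.44, and Nqo1, an antioxidant enzyme gene, by 0.43. Among 12 immediate early genes Fos (0.75), Egr1 (0.67) and Jun (0.47) led, with 0 past the threshold. Of 12 genes of the unfolded protein response 9 had a positive difference, with Hspa5, the BiP chaperone gene, at 0.29, Dnajb9, a co-chaperone gene, at 0.30 and Hsp90b1 at 0.26. The heat shock list had a median of -0.0044, and Hspa1a and Hspa1b, near-identical copies, differed by 0.49 and 0.35 and Hsp90aa1, a cytosolic chaperone gene, by 0.26. Of 15 atrophy and autophagy genes 10 lay above 0 and 0 passed, with the ubiquitin ligase genes Cblb and Fbxo30 and the autophagosome gene Map1lc3a at -0.18, 0.19 and -0.26.

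Genes of energy metabolism and of fibre type showed no call. The respiratory chain and tricarboxylic acid cycle list (23 genes) had a median of -0.033, with Sdhc, a succinate dehydrogenase subunit gene, lowest in aged muscle at -0.53 (limma adjusted p = 0.310). The cytochrome c oxidase genes Cox4i1 and Cox5a differed by -0.28 and -0.29. The median of the same list at the other 6 ZT was -0.18, with 11 of 23 past the threshold and lower. The slow fibre list had a median of -0.55 there, with 6 of 12 past the threshold and lower. Of all genes 5.79% were called lower at the other 6 ZT. Among 16 glucose and glycogen genes 2 were separated upward and 2 downward, beside 6.72% and 4.56% of all genes. In this list 6 lay above 0 and 10 below, and the median was -0.017. The 3 of smallest p lay above, where Pdp1, a pyruvate dehydrogenase phosphatase gene, differed by 0.40, Aldoa, the aldolase gene, by 0.31 and Hk2, the hexokinase gene, by 0.21. Lipid use genes had a median of 0.042, with Plin5, a lipid droplet gene of oxidative tissue, at -0.27, Cd36, a fatty acid transporter gene, at 0.22 and Lpl, the lipoprotein lipase gene, at 0.21. Slow fibre genes had a median of -0.19, and Myh7, the slow myosin gene, ranged from 9.21 to 10.5 in young and from 8.23 to 9.94 in aged arrays, with overlap. Pln, the phospholamban gene, differed by 0.43 and Tnnc1, the slow troponin C gene, by -0.65. Fast fibre genes had a median of 0.0019, with Casq1, the calsequestrin gene, Pvalb, the parvalbumin gene, and Mybpc2, a myosin-binding protein gene, at -0.15, -0.13 and 0.16. The fibre list had a median of -0.018, with Acta1, the skeletal actin gene, Ckm, the creatine kinase gene, and Mb, the myoglobin gene, at -0.08, -0.12 and 0.17.

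**Figure D4:**
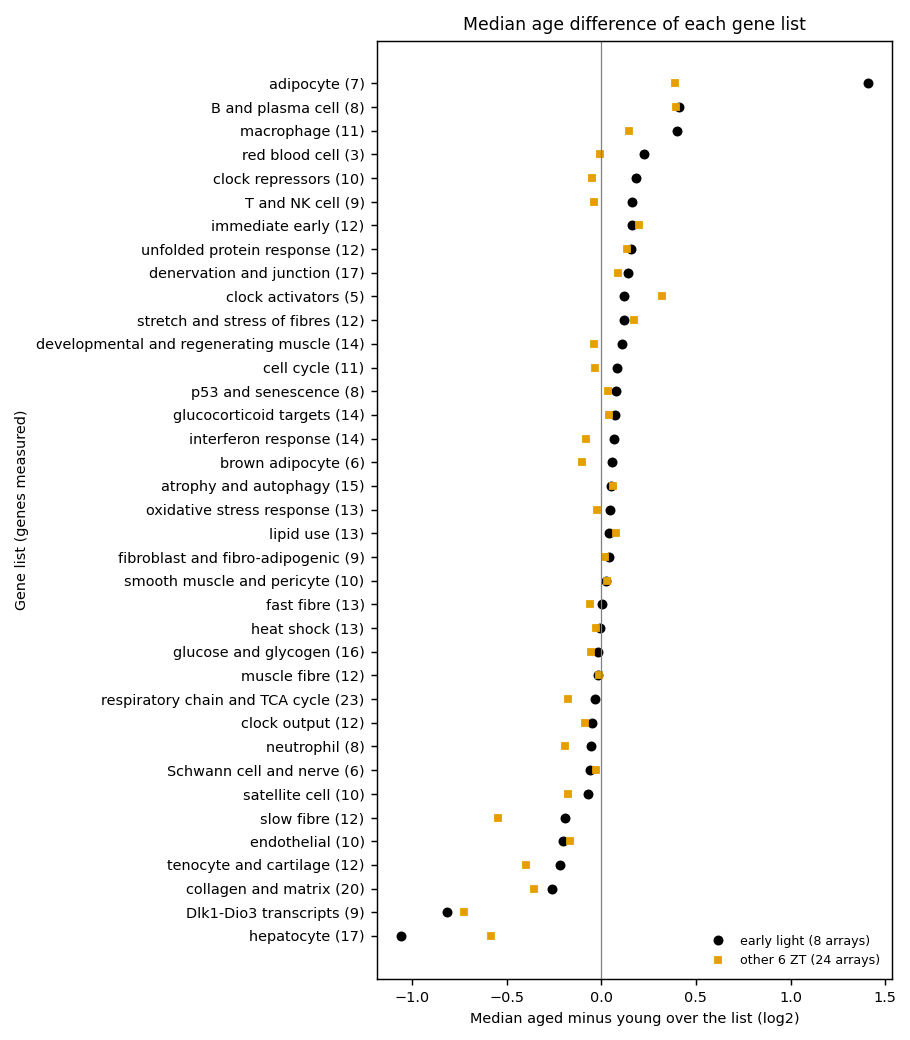
Median aged minus young on the log2 scale (x axis) over the measured genes of each list (y axis, number measured in brackets), in early light (black) and at the other 6 ZT (orange). The adipocyte list lies at 1.41 in early light and 0.39 at the other ZT, and the hepatocyte and Dlk1-Dio3 lists lie lowest.

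No gene of the circadian clock or its output differed with age past the threshold in early light. Of 27 measured genes 6 had an unadjusted p under 0.05 by limma, beside 2546 of all 23279 genes. The smallest limma adjusted p was 0.315. Among activators, Npas2, a partner of BMAL1, stood at 6.78, 6.99, 6.87 and 6.59 in young and 6.53, 6.48, 6.60 and 6.05 in aged arrays (difference -0.39, unadjusted p = 0.0155, limma adjusted p = 0.346). Arntl, which encodes BMAL1, differed by 0.0072 ± 0.10 and Clock by 0.18. Rora and Rorb, the nuclear receptors that drive Arntl, differed by 0.24 and 0.12.

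Among repressors, Bhlhe40, which encodes DEC1, stood at 9.70, 9.72, 10.0 and 10.2 in young and 10.3, 10.1, 10.4 and 10.3 in aged arrays (difference 0.33, limma adjusted p = 0.315). The 2 aged arrays of each ZT lay above the 2 young. The period genes Per1, Per2 and Per3 differed by 0.28, 0.32 and 0.21, the cryptochromes Cry1 and Cry2 by -0.15 and 0.31, and the REV-ERB genes Nr1d1 and Nr1d2 by -0.15 and -0.0028. Bhlhe41 (DEC2) and Ciart, a repressor of CLOCK and BMAL1, differed by 0.16 and -0.24. Among output genes, Nfil3, a repressor that competes with DBP, stood at 8.12, 8.29, 8.00 and 7.70 in young and 8.14, 7.73, 7.45 and 7.18 in aged arrays (difference -0.40, adjusted p = 0.332), and Coq10b, a coenzyme Q binding gene, differed by 0.46. Dbp, Tef and Hlf, which encode the PAR bZIP activators, differed by 0.10, 0.029 and -0.19. Wee1, Usp2, Tspan4, Lonrf3, Tfrc, Pnpla2 and Gpcpd1 lay between -0.35 and 0.05.

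Time within the window gave larger differences than age in several clock genes, none past the threshold. From ZT 0 to ZT 3, with age in the model, Nr1d1 differed by 0.77 ± 0.13, from 10.6 to 11.6 in young and from 10.7 to 11.2 in aged arrays, the means of 2. Dbp differed by 0.55, Per3 by 0.48, Bhlhe40 by 0.29, Nfil3 by -0.49 and Cry1 by -0.37 between the times. These are the 6 clock genes with an unadjusted p under 0.05 for time by limma. Bhlhe40 is the exception among them, as it differed slightly more by age (0.33) than by time. In 5 of the 6 the age difference had the sign of the change from ZT 0 to ZT 3, the exception being Nr1d1, while over all 27 genes the signs matched in 14. Of the genes as a whole, 0.0% (0 by limma, 842 at an unadjusted p under 0.05) passed the test of ZT 3 against ZT 0. Zfp935, Zfp97, Nr1d1, Traj55, Gm15411 and Nat8f6 had the smallest p, with differences of 0.69, 0.76, 0.77, 0.64, 0.62 and -0.58 (limma adjusted p = 0.961 each).

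**Figure D5:**
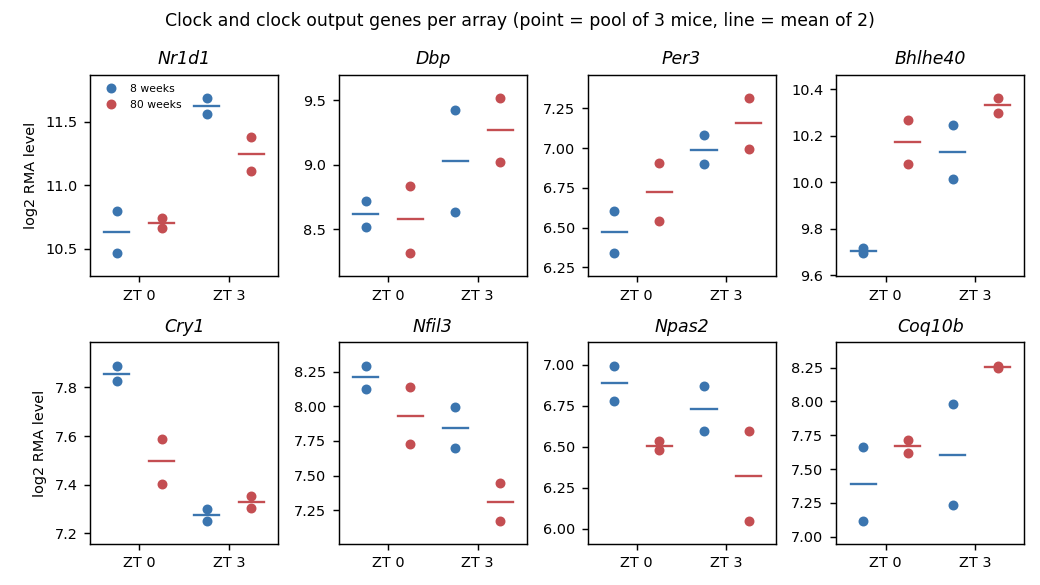
Log2 RMA level (y axis) of 8 clock and output genes in each array at ZT 0 and ZT 3 (x axis), young in blue and aged in red, each point a pool of 3 mice and each line the mean of 2. Nr1d1 and Per3 lie higher at ZT 3 than at ZT 0 in both ages, and Bhlhe40 lies higher in aged than in young at both ZT.

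The age difference was tested for a change between ZT 0 and ZT 3, and 0.0% of genes passed (0 by limma, 688 at an unadjusted p under 0.05). The genes of smallest p were Snora31, a small nucleolar RNA, Mfsd4b4, Ly6a2 and Foxe1. Snora31 differed by -0.045 between the ages at ZT 0 and by 1.19 at ZT 3, where it stood at 6.82 and 6.46 in young and 7.65 and 8.01 in aged arrays (limma adjusted p = 1.000). For Mfsd4b4, Ly6a2 and Foxe1 the change of the age difference was 0.80, 0.85 and -0.96.

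The same age comparison in the 24 arrays of the other 6 ZT, which are pools of other mice, gave 1616 higher and 1349 lower genes, 6.94% and 5.79% of those tested. All 30 genes called in early light had the same sign there, and 18 of the 25 higher genes (72%) and all 5 lower genes passed the test. These are 1.11% and 0.371% of the genes called at the other 6 ZT. Of the 18 higher genes without a slope on the adipocyte mean past the threshold 17 passed at the other 6 ZT, the exception being Serpinb1a (0.23, limma adjusted p = 0.403), and of the 7 with a slope past it 1 passed. The slopes were fitted in these same 24 arrays, so that this split by slope is no separate test. Amy1 differed by 1.15 in early light and 1.15 at the other 6 ZT, Meg3 by -0.87 and -0.91, and Dkk3 by 1.61 and 1.64. Of the 2546 genes with an unadjusted p under 0.05 in early light 2242 (88.1%) had the same sign at the other 6 ZT, beside 67.7% of all genes.

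Whether an age difference was particular to early light was tested over all 32 arrays, and 0.0% of genes passed (0 by limma, 877 at an unadjusted p under 0.05). Ppp1r35, a protein phosphatase regulatory subunit gene, had the smallest p among genes of at least 6 in mean level. It differed by 0.36 in early light and -0.26 at the other 6 ZT (limma adjusted p = 1.000). Alyref2, Srcin1, Gsdmcl2, Glmn and Gm5916 followed, with a change of the age difference of -0.49, -0.37, -0.51, 0.40 and 0.69. Kcnab1 differed less in early light (1.40) than at the other 6 ZT (2.02), and Zfp97 more (1.49 and 0.49), with unadjusted p of 0.00439 and 0.00168 that did not pass after adjustment. Adipoq had a change of 1.09 ± 0.79 (unadjusted p = 0.181), so that its larger difference in early light was not shown to differ from that at the other ZT. Of the 27 clock genes 4 had an unadjusted p under 0.05, Per3, Coq10b, Nfil3 and Arntl, with limma adjusted p = 1.00 for each.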

How the data were processed

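RNA of hindlimb muscle was measured on GeneChip Mouse Gene 2.0 ST arrays. The deposited values are log2 levels that the authors computed with the RMA method, using R 3.2.2 and affy 1.44.1, according to the submitters' processing notes. This method subtracts background, equalises the arrays by quantile normalisation and combines the probes of a set, and it understates differences of weak genes. How the probe sets were defined, and on which genome build, is not given in the sources used here. Of 24479 probe sets 23281 had 1 gene symbol and 1198 none in the platform annotation, and 23156 identifiers were in the RefSeq table of GRCm38.p6. This left 23279 genes, with no filter on level. For arrays precision is set by how many there are. The tests used limma 3.58.1 under R 4.3.3 (lmFit and eBayes on log2 values, age and ZT in the model, Benjamini-Hochberg over all genes, threshold 0.05), and were tested on simulated data.

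The labels gave the groups. The genes named are the 14 largest rises and 14 largest falls with ages separated at both ZT (called genes first, then genes of at least 6 in mean level), all clock genes, the 3 genes of smallest p of each further list, and those of smallest p for age by ZT, age by window and ZT; the remaining called genes and further members of lists were named after their values were seen. The comparison, the gene lists and the tests were chosen with earlier results of these data known. Alternatives covered the scaling, the filter, the variance model, the ZT term, the repeat number and each array left out. Liver transcripts were taken as a hepatocyte mean above 7.5, a limit set after seeing the data.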

Additional observations from a re-analysis of the deposited data

Results flagged for a closer look

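Among the 4 arrays of an age, ZT 0 and ZT 3 together, a value was singled out where its gap to the nearest other array took up more of the whole range than Dixon's critical value for 4 samples allows. Of 370 such sets, from 168 genes and 17 marker lists at both ages, 24 held one, and chance gives about 1 in 20. Other arrays of the age are given after each value.

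In young ZT 0 replicate 2 the outlying levels were 8.82 for B230312C02Rik (7.58 to 7.71), 9.64 for Dpt (8.92 to 8.96), 9.56 for Jun (9.24 to 9.30), 7.28 for Mt2 (6.88 to 6.94), 5.35 for Rorb (5.70 to 5.74) and 4.24 for the neutrophil mean (4.47 to 4.51). In young ZT 3 replicate 2 they were 11.1 for B2m (11.3 in the others), 7.86 for Cyp2e1 (8.85 to 9.04), 3.78 for Igkv14-126 (2.93 to 3.05), 10.3 for Nr1d2 (9.94 to 10.0) and 6.95 for the adipocyte mean (7.55 to 7.67). In young ZT 3 replicate 1 they were 5.30 for Cd8a (4.61 to 4.68) and 5.71 for Lonrf3 (6.39 to 6.50), and in young ZT 0 replicate 1 5.79 for Tmem45b (5.39 to 5.46).

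In aged ZT 0 replicate 1 the outlying levels were 7.70 for Kcnab1 (8.30 to 8.38), 8.33 for Map1lc3a (7.74 to 7.81), 9.16 for Tfrc (9.43 to 9.47) and 7.23 for the macrophage mean (6.69 to 6.75). In aged ZT 3 replicate 1 they were 7.66 for Cry2 (7.93 to 7.97), 4.71 for Kera (5.74 to 5.89) and 4.76 for Usp17lc (6.13 to 6.31). In aged ZT 3 replicate 2 they were 5.79 for Lonrf3 (6.44 to 6.51) and 8.01 for Snora31 (7.65 to 7.68), and in aged ZT 0 replicate 2 6.30 for Egr1 (6.94 to 6.96).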

How the results depend on the processing

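The early-light comparison on all 8 arrays gave 25 higher and 5 lower genes. The counts were 67 and 22 with the spread taken from all 32 arrays, 108 and 34 with the filter on level, and 78 and 17 with an intensity trend and robust prior. They were 48 and 7 with array weights, 14 and 5 with quantile normalisation, 24 and 5 with median centring, 45 and 6 without the ZT term, and 25 and 5 with a minimum of 1.5-fold. ZT 0 alone gave 1 and 0, and ZT 3 alone 0 and 0, where each test had 2 arrays per age. Leaving out single arrays gave 3 to 22 higher and 0 to 4 lower genes, and 0 to 3 genes whose age difference differed between ZT 0 and ZT 3. Without the 2 young arrays with liver transcripts the counts were 1 and 0. At the other 6 ZT they were 1008 and 813 without 4 such arrays, against 1616 and 1349. The cause of these shifts was not tested, and the fits that leave out arrays or take 1 ZT have fewer samples. No called gene changed its direction under any alternative. For fits that leave out arrays, take 1 ZT or weight the arrays, the separation of the ages at both ZT fixed this in advance. The filter, the trend and robust prior, the spread from all 32 arrays, the ZT term and the blocks leave the difference itself unchanged. Only quantile normalisation and median centring could have changed the direction. With them the called genes differed by 0.922 to 1.07 and by 0.995 to 1.01 times the main difference. With the spread from all 32 arrays 20 of the 30 called genes passed, and with quantile normalisation 19. The 10 lost with the spread from all 32 arrays were the 7 that follow the adipocyte mean and Pmp22, Serpinb1a and Slc15a5. The 7 were chosen for following that mean at the other 6 ZT, which partly built in their wide spread. Zfp97 and Serpinb1a did not pass without the ZT term (limma adjusted p = 0.0712 and 0.0947). Of the named genes that missed the threshold 16 passed in at least 1 of the 7 other settings on all 8 arrays without a block.

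With the repeat number as a replicate block the counts were 30 and 4, and with the block nested in ZT 21 and 3. The differences between repeats correlated between the ages, over genes, at 0.0501 for ZT 0 and -0.0252 for ZT 3, so that the number was not taken to pair arrays. Of the 30 called genes 6 did not pass with the block and 12 did not with the nested block. Palld passed with neither (limma adjusted p = 0.0505 and 0.0728), and Meg3 did not with the nested block (0.0564). With the block Igkc and Ighg2c passed (limma adjusted p = 0.00431 and 0.0355), and with the nested block Igkc (0.00723). With 4 arrays per age, a p that misses the threshold does not show that the ages are alike.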

Other observations

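The Dlk1-Dio3 domain was followed across its neighbours, in the order that RefSeq gives on GRCm38.p6. Of 67 measured genes from Dlk1 to Dio3 51 had a negative age difference in early light, with a median of -0.19. All 6 long non-coding RNAs and all 6 small nucleolar RNAs were on the negative side, with medians of -0.22 and -0.63, and 2 and 4 of them had every aged array below the young at both ZT. The 52 microRNA genes had a median of -0.16, with 38 negative, 6 separated downward and 1, Mir134, separated upward. Their young means ran from 2.24 to 8.08, so that some lay low, and whether such levels are above background was not tested. Of the 6 separated downward, Mir434, Mir136 and Mir376a had young means of 3.87, 3.26 and 2.41, and Mir409 and Mir666 of 6.10 and 6.99. Over all genes 11737 of 23279 had a negative difference, 4.56% were separated downward and 6.72% upward. Mir493 was at 4.85 in young and 4.38 in aged arrays on average, a low level. At the other 6 ZT the small nucleolar RNAs had a median of -0.65 and the microRNA genes one of -0.084. Neighbours of one transcribed chain are not independent, and these genes were looked at because Meg3 and AF357425 had passed.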
